A study of Mus musculus with 10 samples.

Results

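Epithelial and mesenchymal state genes are the adhesion, cytoskeleton, matrix and regulatory genes by which a sheet-forming epithelial cell is told from a migratory mesenchymal cell. The 10 members were chosen by symbol, with no measured value in the rule, from the 51467 genes of a count table of mouse embryonic stem cells. They were the epithelial genes Cdh1, Epcam, Cldn6, Krt8 and Krt18 and the mesenchymal genes Cdh2, Vim, Fn1, Zeb1 and Zeb2. All 10 were in the table. With a filter of at least 3 CPM (counts as a rate of the plain library total) in at least 3 libraries, 9 were among the 11683 genes tested. Zeb2 was not. The CPM values of genes given below are rates of the TMM-normalised library total.

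The libraries were made with a 3′-end protocol (QuantSeq), in which reads come from the stretch next to the poly(A) tail. WT cells (V6.5, 3 libraries), DGCR8 KO cells (3 libraries) and DDX6 KO cells (4 libraries, 2 from each of 2 clones) were all grown in serum with LIF and 2i, the pair of inhibitors PD0325901 and CHIR99021 that holds the naive state. DGCR8 is the partner of Drosha needed to make most miRNAs, and DDX6 is an RNA helicase that acts with the miRNA effector complex. The labels give CRISPR as the source of the KO cells. The study's methods describe it for the DDX6 KO clones, made from V6.5 with an insertion in 1 clone and a deletion in the other, and call the DGCR8 KO line an earlier one, so a genotype here is 1 line or 2 clones. Nothing in the labels says that libraries of a group came from separate cultures, so the tests measure the spread between these libraries, which may be technical.

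Library totals ran from 2131156 to 4745083 counts, and a floor of 3 counts equalled 0.669 to 1.44 CPM, depending on the library. Dgcr8 stood at 20.6% of its WT mean in DGCR8 KO cells and Ddx6 at 16.2% in DDX6 KO cells, 26.4% in clone 1 and 6.02% in clone 2, although 3′-end reads do not test a deletion further upstream. The 8 embryonic stem cell markers were all detected in each group, with a summed level of 4274 to 4608 CPM in WT, 3808 to 4160 in DGCR8 KO and 4480 to 4757 in DDX6 KO libraries. At an adjusted p-value under 0.05 (limma-voom), 4 of the 8 were lower and 1 higher than WT in DGCR8 KO cells, where 16.5% and 19.9% of all genes tested were. In DDX6 KO cells 1 was lower and 2 higher, where 16.6% and 17.9% of all genes were. None of these reached a log2 fold change of 1 in size. The 11 fibroblast markers summed to 7.58 to 13.9 CPM in WT, 7.13 to 9.77 in DGCR8 KO and 15.4 to 20.5 in DDX6 KO libraries. Dcn and Postn had no count in WT or DDX6 KO cells, and S100a4 had none in WT or DGCR8 KO cells.

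Embryonic stem cells are epithelial in character. They hold to one another through E-cadherin, the product of Cdh1, and in an epithelial-mesenchymal transition (EMT) cells lose E-cadherin and gain N-cadherin, vimentin and fibronectin. ZEB1 and ZEB2 are zinc-finger repressors of epithelial genes that bind E-box DNA, and the miRNAs of the miR-200 family repress both, while the ZEB proteins repress the miR-200 genes in turn. The ESCC miRNAs are the related miR-290 and miR-302 families of early embryonic cells, of which miR-290 is the one of naive cells and miR-302 that of later, primed cells. No miRNA was measured in these libraries.

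The sequences through which this circuit is known to work are shown first, and the levels of the members follow below. Cells without DGCR8 lack most miRNAs, and whether a member is a miRNA target in these cells was not tested. The mature miRNAs are from RefSeq (GRCm38.p6), with bases 2 to 8, the seed, in capitals. The miR-200 family falls into 2 seed groups that differ by a base, and miR-294 and miR-302b share another, called the ESCC seed here.
miR-200b-3p: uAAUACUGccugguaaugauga
miR-200c-3p: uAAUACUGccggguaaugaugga
miR-429-3p: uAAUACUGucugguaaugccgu
miR-200a-3p: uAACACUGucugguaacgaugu
miR-141-3p: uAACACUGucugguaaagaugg
miR-294-3p: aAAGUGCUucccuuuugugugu
miR-302b-3p: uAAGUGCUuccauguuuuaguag
miR-302c-3p, whose seed is shifted by a base: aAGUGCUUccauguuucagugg

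Perfect matches to bases 2 to 8 were searched on the sense strand of the 3′ UTR of each member's main coding transcript (GENCODE M21, GRCm38). Zeb2, with a 3′ UTR of 4941 bases, held 5 matches (CAGTATT) to the seed of miR-200b-3p, miR-200c-3p and miR-429-3p, the miR-200b group below, and 4 (CAGTGTT) to that of miR-200a-3p and miR-141-3p, the miR-200a group. Of the 601 tested genes with a 3′ UTR within 20% of that length, 40.3% held at least 1 match of the first kind and 55.2% of the second, with means of 0.54 and 0.86 matches. Zeb1, with 2401 bases, held 5 and 4 as well, against 26.4% and 33.6% of 1436 genes of like length with at least 1. Neither held a match to the ESCC seed (AGCACTT). The first 3 matches of each kind in Zeb2 are printed to show that the bases around them differ while the capitals, the seed match, do not. The position in the name counts from the first base of the 3′ UTR, and the gene lies on the minus strand.
Zeb2 position 393, chr2:44988166-44988191: ctaccatacatCAGTATTttattatt
Zeb2 position 458, chr2:44988101-44988126: ctacagtgcatCAGTATTacgattcc
Zeb2 position 820, chr2:44987739-44987764: agcacccgtgtCAGTATTagacgact
Zeb2 position 209, chr2:44988350-44988375: aaaattttgtaCAGTGTTaaggccta
Zeb2 position 741, chr2:44987818-44987843: ccatccttgtaCAGTGTTcagagggt
Zeb2 position 782, chr2:44987777-44987802: tgcaccagcttCAGTGTTaagctcac

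The other members held few. Vim held the members' 1 match to the ESCC seed, in a 3′ UTR of 312 bases, where 3.6% of 822 tested genes of like length had at least 1. Fn1 held 1 match to each miR-200 seed in 688 bases, against 7.4% and 10.7% of 1256 genes, and Cldn6 held 1 to the miR-200a group seed. Cdh1, Epcam, Krt8, Krt18 and Cdh2 held none of these 3 kinds. The shifted seed of miR-302c (AAGCACT, which overlaps AGCACTT by all but a base) had 1 match each in Cdh2, Cldn6 and Zeb1, against 10.9%, 6.3% and 21.9% of tested genes of like length with at least 1, and none in the other 7 members. A match is a run of letters and not a tested site, and the length of the 3′ UTR alone changes how often one occurs.
Vim position 137, chr2:13582640-13582665, plus strand, ESCC seed match: gaaagaagctcAGCACTTaacaactg
Fn1 position 532, chr1:71585666-71585691, minus strand, miR-200b group seed match: tcaatttttccCAGTATTtttatacg
Fn1 position 243, chr1:71585955-71585980, minus strand, miR-200a group seed match: tcagtactgctCAGTGTTgtttaaga

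**Figure D1:**
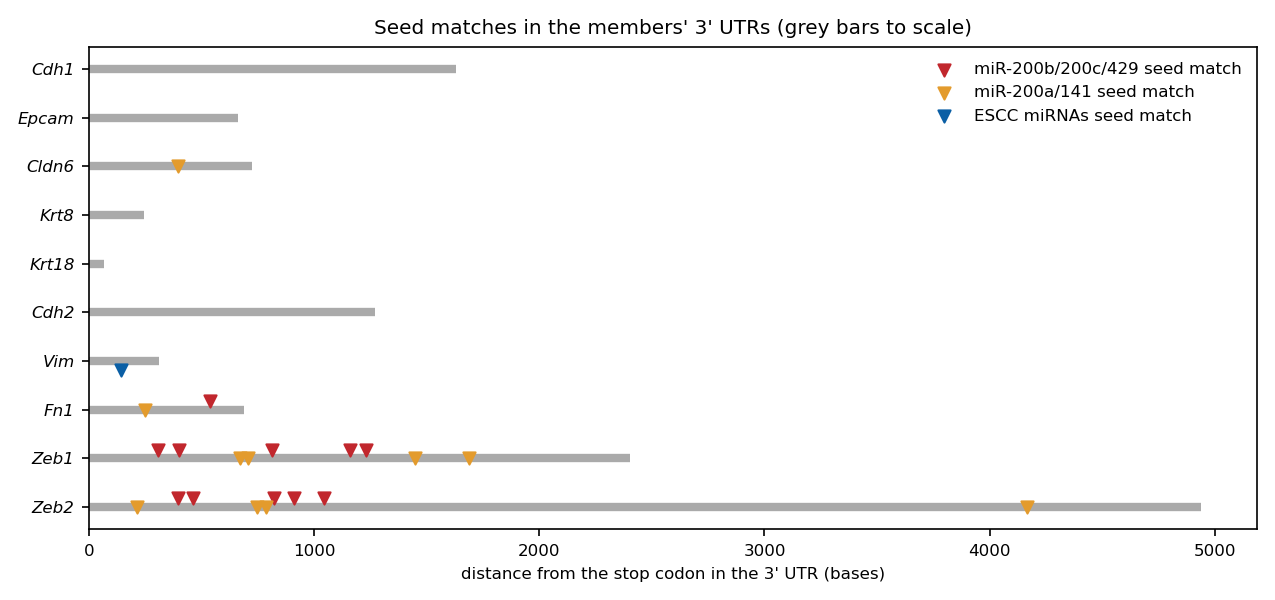
Positions of seed matches (triangles) along the 3′ UTR of each of the 10 members (grey bars, to scale), with the distance from the stop codon in bases on the x axis. Zeb1 and Zeb2 each hold 5 matches to the miR-200b group seed (red) and 4 to the miR-200a group seed (orange), and the ESCC seed match is in Vim. Matches to the miR-302c seed are not drawn.

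Promoter sequences (250 bases before to 50 after the start, RefSeq, GRCm38.p6) are described for 5 members. CACCTG and its reverse complement CAGGTG, an E-box form that ZEB proteins bind, were searched together, which covers both strands. Epcam and Cldn6 held 2 each and Krt18 held 1, whereas Vim and Zeb2 held none. Of 27025 promoters of this length, 5413 held at least 1 and 770 (2.85%) at least 2. The E-boxes of Epcam, a member that rose in DGCR8 KO cells, are printed with the motif in capitals and the distance of its first base from the start site.
Epcam -187, chr17:87635782-87635807, plus strand: cagtagggccCACCTGctggaggacc
Epcam -19, chr17:87635950-87635975, plus strand: ccataaaaccCAGGTGtggaggagaa

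In DGCR8 KO cells members of both states rose. Epcam, Krt8, Vim and Cdh2 were called higher than in WT and Cldn6 lower, where a call needs an adjusted p-value under 0.05 (limma-voom, two-sided, Benjamini-Hochberg over all genes tested) together with at least a doubling or halving, a log2 fold change past 1 or -1. That is 5 of 9 members, where 14.7% of all genes tested were called, 8.93% as higher and 5.81% as lower. Zeb1 passed the adjusted p-value without reaching the fold, which made 6 members that passed, where 36.3% of all genes did. The libraries of both groups did not overlap for 6 members, where 44.8% of all genes tested did not. By side, 2 of 5 epithelial members passed higher and 1 lower, and 3 of 4 tested mesenchymal members passed higher and none lower. In DDX6 KO cells Krt8 and Krt18 were called higher and Fn1 lower, 3 of 9 members where 11.2% of all genes tested were called, 7.55% as higher and 3.66% as lower. Vim passed lower without reaching the fold, which made 4 that passed, where 34.5% of all genes did, and 3 members had no overlap, where 39.9% of all genes had none. Krt8, counted in both knockouts, came through the filter only with KO libraries, so its calls are no support for a rise.

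**Figure D2:**
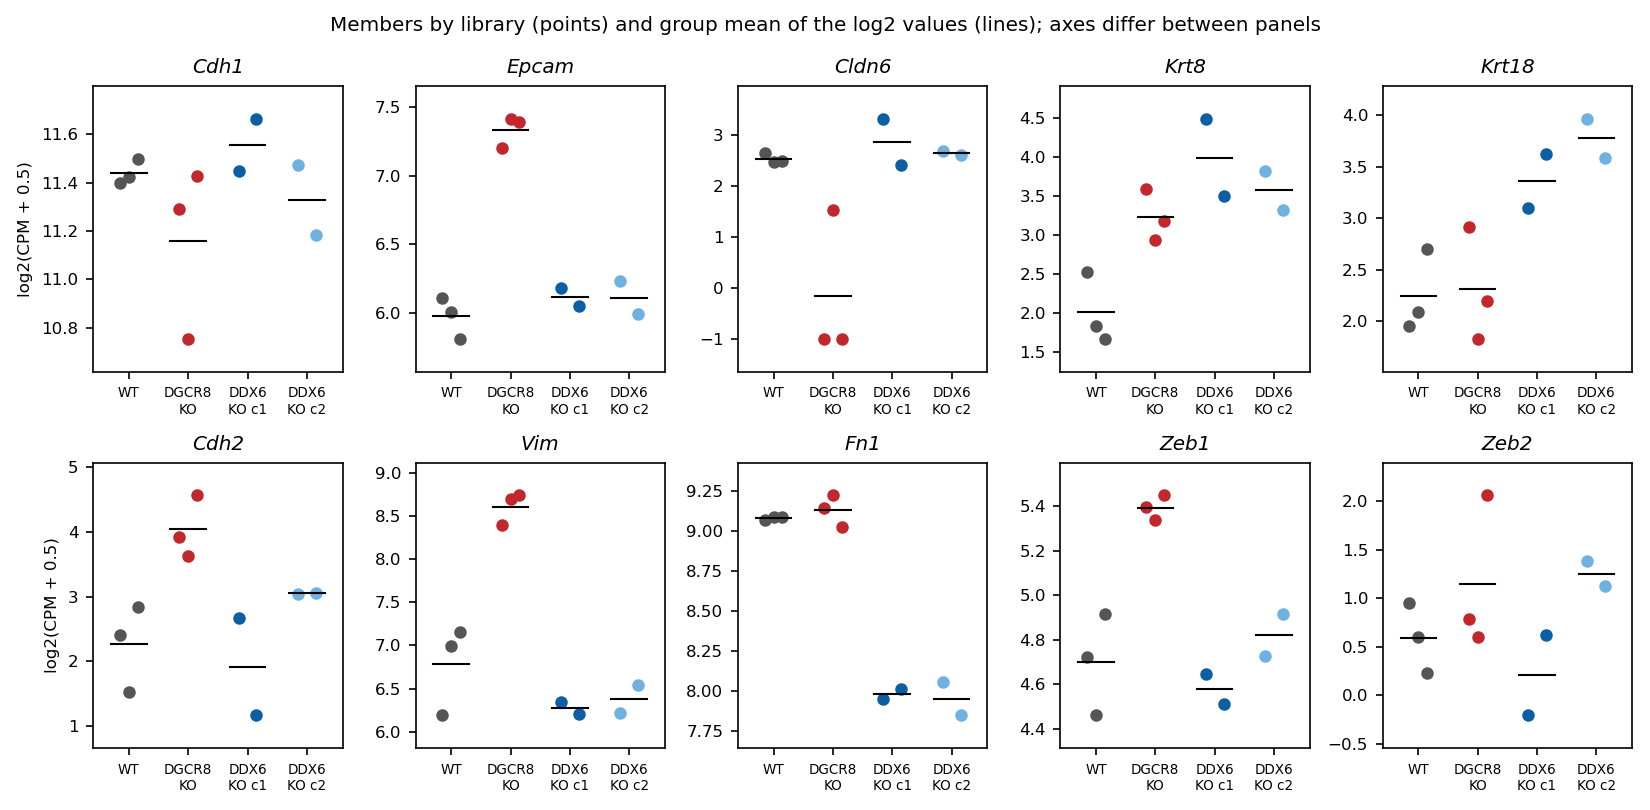
Level of each member on the log2(CPM + 0.5) scale (y axis, which differs between panels) in WT, DGCR8 KO and DDX6 KO clone 1 (c1) and clone 2 (c2) libraries. Points are libraries and lines are means of the log2 values, and the DGCR8 KO libraries stand above all others for Epcam, Vim, Cdh2 and Zeb1 while the DDX6 KO libraries stand below all others for Fn1.

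Cdh1 (chr8:106603351-106670246, GRCm38), E-cadherin, was at 2701, 2747 and 2892 CPM in the WT libraries, 2502, 1727 and 2756 in DGCR8 KO, 2792 and 3242 in DDX6 KO clone 1 and 2842 and 2326 in clone 2. DGCR8 KO replicate 2 was the lowest of all 10 libraries, and the groups overlapped. The log2 fold change was -0.29 ± 0.13 (SE) in DGCR8 KO cells, with a 95% interval of -0.57 to -0.01 and an adjusted p of 0.102. It passed at -0.27 (adjusted p = 0.0391) with the replicate number as a block, at -0.33 (0.0406) with no filter on low counts and at -0.42 (0.0225) without DGCR8 KO replicate 3. Without DGCR8 KO replicate 2 it was -0.08 (0.569). The DDX6 KO mean was 2801 ± 375 CPM (SD, n = 4) against 2780 ± 99.8 (SD, n = 3) in WT, with an interval of the log2 difference of -0.27 to 0.26.

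Cdh1 lies on chromosome 8, whose genes had lower values in DGCR8 KO cells. The median log2 fold change of the 644 tested genes on that chromosome was -0.45 against WT with DGCR8 lost and -0.03 with DDX6 lost, and 44.6% of them passed as lower in DGCR8 KO cells where 16.5% of all genes tested did. Cdh1 lay above 63.4% of the genes on its chromosome, and its value less the chromosome median was 0.16. In DGCR8 KO replicate 2 Cdh1 was at -0.69 relative to the WT mean where the chromosome median was -0.51, while in replicates 1 and 3 it was at -0.15 and -0.01 with chromosome medians of -0.39 and -0.42. The part of the chromosome-wide value in the level of Cdh1 was not tested. For the other tested members the median of their chromosome lay between -0.06 and 0.08 in every contrast.

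**Figure D3:**
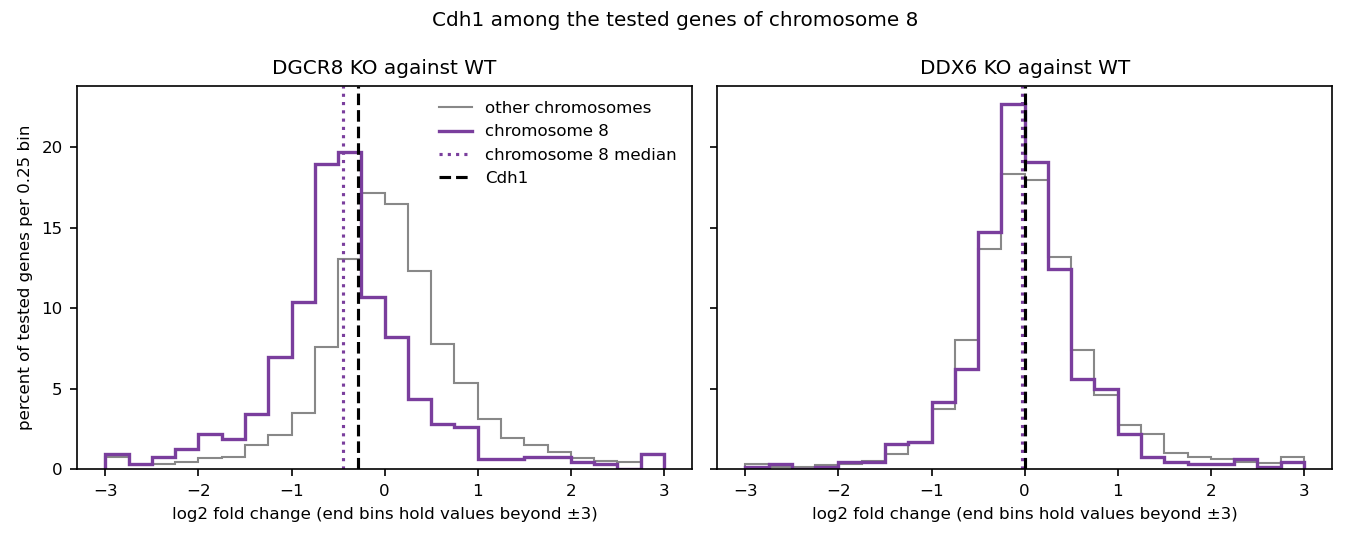
Percent of tested genes per bin of 0.25 (y axis) by log2 fold change against WT (x axis), for chromosome 8 (purple) and all other chromosomes (grey), in DGCR8 KO (left) and DDX6 KO cells (right). The chromosome 8 median (dotted) is at -0.45 on the left and -0.03 on the right, and Cdh1 (dashed) is at -0.29 on the left.

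Epcam (chr17:87635979-87651129), a surface adhesion protein of epithelia and of pluripotent cells, was at 68.7, 63.7 and 55.7 CPM in WT, 147, 170 and 167 in DGCR8 KO, 72.2 and 65.7 in clone 1 and 74.6 and 63.2 in clone 2. The DGCR8 KO libraries all stood above every other library. Its level was 2.61-fold that of WT in DGCR8 KO cells (log2 1.38 ± 0.13, adjusted p = 1.77e-07). With DDX6 lost the difference was 0.16 ± 0.13, with an interval of -0.11 to 0.42 (adjusted p = 0.363), and both clones had a mean of 68.9 CPM.

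Cldn6 (chr17:23679249-23682446), a tight junction claudin of early embryonic epithelium, had few counts. It had 12, 15 and 23 counts in the WT libraries (5.76, 5.11 and 5.13 CPM), 0, 7 and 0 in DGCR8 KO (7 counts being 2.38 CPM), 26 and 14 in clone 1 (9.52 and 4.87 CPM) and 17 and 20 in clone 2 (5.98 and 5.6 CPM). Each DGCR8 KO library was below every other library. A count of 0 allows up to 0.919 CPM in replicate 1 and 1.22 CPM in replicate 3. The log2 fold change in DGCR8 KO cells was -3.66 ± 0.79 (adjusted p = 0.0014), with the widest interval of the members, -5.32 to -1.99. It was -2.91 without DGCR8 KO replicate 1, -3.11 without replicate 3 and -4.94 without replicate 2, and passed each time. The size depended on the tool, with -2.65 from edgeR, -2.74 from DESeq2 and -2.44 from limma-trend, each of which passed. With the libraries at 0 set to their floor, the WT mean was at least 3.54-fold that of the 3 DGCR8 KO libraries. The DDX6 KO libraries differed from WT by 0.24 ± 0.37 on the log2 scale (adjusted p = 0.655).

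Krt8 and Krt18 encode the partner keratins of simple epithelia, which form filaments as a pair, and their genes are neighbours on chromosome 15 (chr15:101996698-102004482 and chr15:102028180-102032027). Krt8 was at 5.28, 3.07 and 2.68 CPM in WT, 11.6, 7.13 and 8.55 in DGCR8 KO, 22 and 10.8 in clone 1 and 13.7 and 9.52 in clone 2. Every KO library stood above every WT library. The log2 fold change was 1.94 ± 0.40 in DDX6 KO cells (adjusted p = 0.00111) and 1.43 ± 0.43 in DGCR8 KO cells (adjusted p = 0.0149). The WT libraries alone did not bring Krt8 through the filter of 3 CPM in 3 libraries, and KO libraries were needed. Those adjusted p-values and the lack of overlap are therefore no support for a rise. The DGCR8 KO value did not pass without DGCR8 KO replicate 1 (1.21, adjusted p = 0.0682) or without WT replicate 3 (1.17, adjusted p = 0.1). The DGCR8 KO and DDX6 KO cells did not pass as different from each other for Krt8 (-0.52 ± 0.30, interval -1.15 to 0.12).

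Krt18 was at 3.36, 3.75 and 6.02 CPM in WT, 7.04, 3.05 and 4.07 in DGCR8 KO, 8.06 and 11.8 in clone 1 and 15.1 and 11.5 in clone 2. Only the DDX6 KO libraries stood apart from WT. The log2 fold change was 1.29 ± 0.35 in DDX6 KO cells (adjusted p = 0.00756), and the interval in DGCR8 KO cells ran from -0.90 to 0.90. DDX6 KO clone 1 alone did not pass against WT (1.09, adjusted p = 0.0643). The log2 difference of DGCR8 KO from DDX6 KO cells was -1.29 ± 0.35 (adjusted p = 0.00614). Reads that fit more than 1 place were not counted by the authors, so transcripts sharing their end with a pseudogene copy may be understated, and both keratins rested on 7 to 60 counts per library.

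Markers of other cells that make these keratins were set beside them. The 6 trophoblast markers summed to 105 to 146 CPM in WT, 163 to 207 in DGCR8 KO and 59.7 to 108 in DDX6 KO libraries. Most of each sum was Tfap2c, at 90.3, 164 and 59.4 CPM on average in that order. Eomes was at 13.9, 10.3 and 12.8 CPM and Gata3 at 17.7, 13.6 and 9.57. Cdx2 and Hand1 were at or under 1.05 CPM on average, and Elf5 had 0 counts in all 10 libraries. The 8 primitive endoderm markers summed to 8.69 to 13.4 CPM in WT, 4.07 to 6.45 in DGCR8 KO and 17.4 to 24.5 in DDX6 KO libraries, where Dab2 made up 16.6 CPM of the DDX6 KO mean, Sox17 and Gata6 were each under 1 CPM on average and Cubn had no count. The part of these cells in the keratin values was not tested, and in bulk libraries more cells of a type and more RNA per cell cannot be told apart.

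Vim (chr2:13573927-13582826), the intermediate filament protein of mesenchymal cells, was at 72.5, 127 and 142 CPM in WT, 335, 415 and 426 in DGCR8 KO, 80.6 and 73.4 in clone 1 and 73.9 and 92.4 in clone 2. DGCR8 KO libraries were all far above the others, while WT replicate 1 was just under the lowest DDX6 KO library and the other WT libraries were above the highest. The log2 fold change was 1.78 ± 0.17 in DGCR8 KO cells, or 3.44-fold (adjusted p = 3.39e-07), above 97.5% of the 917 tested genes on chromosome 2. The summed level of the fibroblast markers was not higher in the DGCR8 KO libraries, as given above, and their part in the Vim value was not tested. Against WT, DDX6 KO cells were at -0.50 ± 0.18 (adjusted p = 0.0394), a value that did not pass without WT replicate 3 (-0.30, adjusted p = 0.283), without 4 other libraries, with limma-trend (adjusted p = 0.0528), with no filter, with total counts as the scale or with either clone alone. DGCR8 KO and DDX6 KO cells differed by 2.28 ± 0.16, or 4.85-fold.

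Cdh2 (chr18:16588877-16809246), N-cadherin, was at 4.8, 2.39 and 6.69 CPM in WT, 14.7, 11.9 and 23.2 in DGCR8 KO, 5.86 and 1.74 in clone 1 and 7.74 and 7.84 in clone 2. All 3 DGCR8 KO libraries stood above all others. Their log2 fold change against WT was 1.75 ± 0.46 (adjusted p = 0.00544), or 3.37-fold. The DDX6 KO value was 0.18 ± 0.51 (adjusted p = 0.815), with -0.48 in clone 1 and 0.76 in clone 2.

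Fn1 (chr1:71585520-71653200), fibronectin, was at 536, 544 and 544 CPM in WT, 565, 596 and 521 in DGCR8 KO, 247 and 258 in clone 1 and 266 and 230 in clone 2. The 4 DDX6 KO libraries were all under every other library, with a log2 fold change of -1.12 ± 0.09 (adjusted p = 7.78e-08), or 2.17-fold lower. The clones gave -1.10 and -1.13. With total counts as the scale it passed (adjusted p = 3.14e-07) just short of the fold of a call. In DGCR8 KO cells the value was 0.05 ± 0.09, with an interval of -0.14 to 0.24, the narrowest of the members.

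Zeb1 (chr18:5591860-5775467) was at 25.9, 21.5 and 29.7 CPM in WT, 41.6, 40 and 43.2 in DGCR8 KO, 24.5 and 22.3 in clone 1 and 26 and 29.7 in clone 2. The DGCR8 KO libraries did not overlap the others, with a log2 fold change of 0.68 ± 0.17 or 1.6-fold (adjusted p = 0.00393), under the fold of a call. The DDX6 KO interval ran from -0.37 to 0.34. Zeb2 (chr2:44983632-45117395) was near the floor, with 3, 3 and 3 counts in WT, 4, 3 and 9 in DGCR8 KO, 1 and 3 in clone 1 and 6 and 6 in clone 2. The pooled ratio to WT was 1.95 in DGCR8 KO cells, with an exact 95% counting interval of 0.81 to 5, and 1.53 in DDX6 KO cells (0.638 to 3.94). A difference was not detectable at this depth, and the intervals cover counting error only.

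**Figure D4:**
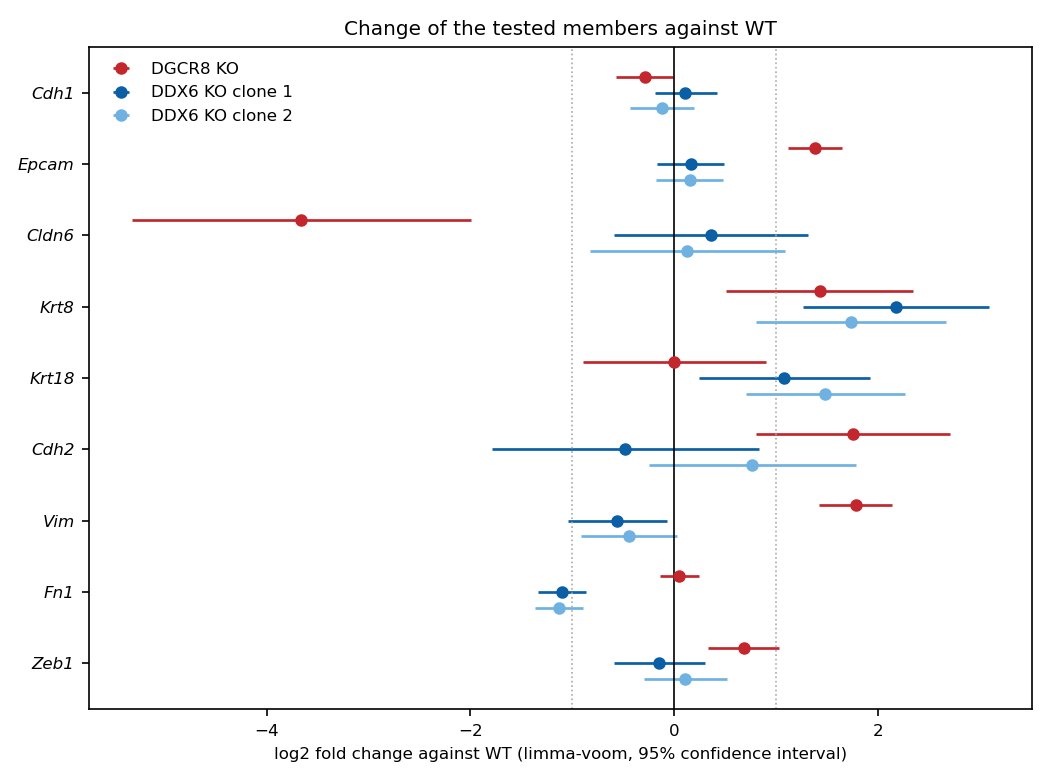
Log2 fold change against WT (x axis, points) with its 95% confidence interval (bars) for the 9 tested members, in DGCR8 KO cells (red) and in DDX6 KO clone 1 (dark blue) and clone 2 (light blue). Dotted lines mark a log2 value of 1 in either direction. Epcam, Krt8, Cdh2, Vim and Zeb1 lie to the right of 0 in DGCR8 KO cells, Fn1 lies near -1.10 in both clones, and the widest bar is that of Cldn6.

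Set against each other, the knockouts differed for 6 of 9 members, where 17.1% of all genes tested were called, 7.77% as higher in DGCR8 KO cells and 9.32% as lower. Epcam (1.23), Cdh2 (1.57), Vim (2.28) and Fn1 (1.17) were higher in DGCR8 KO than in DDX6 KO cells on the log2 scale, and Cldn6 (-3.89) and Krt18 (-1.29) were lower. For Cldn6 the other tools gave -2.94 (edgeR), -3.02 (DESeq2) and -2.66 (limma-trend). Zeb1 passed with 0.69 ± 0.16 (adjusted p = 0.00161), so 7 members passed, where 44.0% of all genes did, and all 4 tested mesenchymal members passed as higher in DGCR8 KO than in DDX6 KO cells. Over all genes tested 23.0% passed as higher and 21.0% as lower. The libraries of both groups did not overlap for 7 of 9 members, against 45.8% of all genes tested. The call of Cdh2 was lost with DDX6 KO clone 2 alone (0.97, adjusted p = 0.0576).

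The DDX6 KO clones did not pass as different from each other for any of the 9 tested members with limma-voom, edgeR, DESeq2 or limma-trend, where 0.0428% of all genes tested were called. At an unadjusted p under 0.05 the count was 0 with limma-voom, edgeR and DESeq2 and 1 with limma-trend, for Cdh2. The intervals of the clone difference were wide for the members with few counts, from -0.04 to 2.53 for Cdh2 and from -1.19 to 0.31 for Krt8, and narrow for Fn1, from -0.30 to 0.24. Against WT, clone 1 alone gave 2 calls among the members and clone 2 alone gave 3, against 9.79% and 9.92% of all genes tested. Krt8, which needed KO libraries to meet the filter, was 1 of the calls in each. The spread between libraries of 1 group also differed between members. The coefficient of variation within DDX6 KO libraries was 6.26% for Fn1, 7.71% for Epcam and 12.1% for Zeb1, and 40% for Krt8 and 49.2% for Cdh2.

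The junctions in which E-cadherin and claudins sit were followed through lists of partner genes, given here as counts beside all genes tested, of which 19.9% passed as higher and 16.5% as lower with DGCR8 lost and 17.9% and 16.6% with DDX6 lost. Of 8 adherens junction genes, 4 passed as higher and 1 as lower in DGCR8 KO cells, and 2 as higher and 1 as lower in DDX6 KO cells. Jup, plakoglobin, which links cadherins to the cytoskeleton, was at 217 ± 9.35 CPM (SD, n = 3) in WT, 446 ± 71.5 in DGCR8 KO cells (n = 3) and 329 ± 50.6 with DDX6 lost (n = 4). The DGCR8 KO value was a log2 fold change of 1.03 (adjusted p = 1.18e-05). Nectin3, a nectin of adherens junctions, was called between the knockouts, at 127 ± 9.62 CPM in DGCR8 KO and 50.2 ± 8.19 in DDX6 KO libraries. Ctnna1, alpha-catenin, was the gene that passed as lower in DGCR8 KO cells, with -0.63 (adjusted p = 2.71e-05), and is named after its value was seen.

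Of 10 tight junction genes, 1 passed in DGCR8 KO cells, Cldn3 as higher. With DDX6 lost, 2 passed as higher and 1 as lower. Cldn4, a claudin of tight epithelia, was at 173 ± 30.9 CPM in WT, 167 ± 24.4 in DGCR8 KO and 400 ± 40.6 in DDX6 KO libraries, with a log2 fold change of 1.21 in the last (adjusted p = 1.65e-06). The list medians were -0.03 and 0.13. Among 4 tested desmosome genes 1 passed as higher with DGCR8 lost and 2 as lower with DDX6 lost, with medians of -0.10 and -0.52. Among 6 apical polarity genes 1 passed as higher and 2 as lower in DGCR8 KO cells and 1 each way in DDX6 KO cells. The gene higher in DGCR8 KO cells was Patj, named after its value was seen, at 2.26 ± 0.501 CPM in WT and 8.24 ± 1.51 in DGCR8 KO libraries. It met the filter only through KO libraries, so its adjusted p-value is no support for a rise. Pard6b, a scaffold of the apical polarity complex, was at 11.4 CPM on average in DGCR8 KO and 23.4 in DDX6 KO libraries (log2 -1.04 ± 0.22, adjusted p = 7.59e-04).

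Of 5 tested epithelial transcription and splicing regulators, 2 passed as higher in DGCR8 KO cells and 1 as higher and 1 as lower in DDX6 KO cells. Grhl2, a grainyhead factor of epithelia under the 10 CPM set for naming and named after its value was seen, passed as higher in both, at 1.15 ± 0.203 CPM in WT, 16.8 ± 1.44 in DGCR8 KO and 7.78 ± 2.73 in DDX6 KO libraries. Of 5 tested genes among other keratins, surface proteins and proteases, 2 passed as higher in each knockout. St14, the membrane protease matriptase, was at 45.2 ± 6.94 CPM in WT, 114 ± 19.5 in DGCR8 KO and 53.1 ± 11.3 in DDX6 KO libraries (log2 1.32 in DGCR8 KO, adjusted p = 1.27e-05). Cd24a, a small surface glycoprotein, was at 13.2 ± 1.89, 30.1 ± 4.8 and 22.2 ± 3.36 CPM in that order (adjusted p = 3.58e-04 in DGCR8 KO, a call). The medians of the regulators were 0.97 and 1.11 in the 2 knockouts, and those of the second list 0.72 and 0.67. The median over all genes tested was 0.00 and 0.02. Both regulator medians were values of Ovol2, which did not pass (adjusted p = 0.155 and 0.0816). Grhl2 and Esrp1, the 2 that passed with DGCR8 lost, had at most 5 and 4 counts in any WT library. They met the filter only through KO libraries, so their adjusted p-values are no support for a rise. Elf3 and Klf5, the regulators over 10 CPM, were at -0.15 and -0.34 with DGCR8 lost and -0.62 and -0.32 with DDX6 lost.

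**Figure D5:**
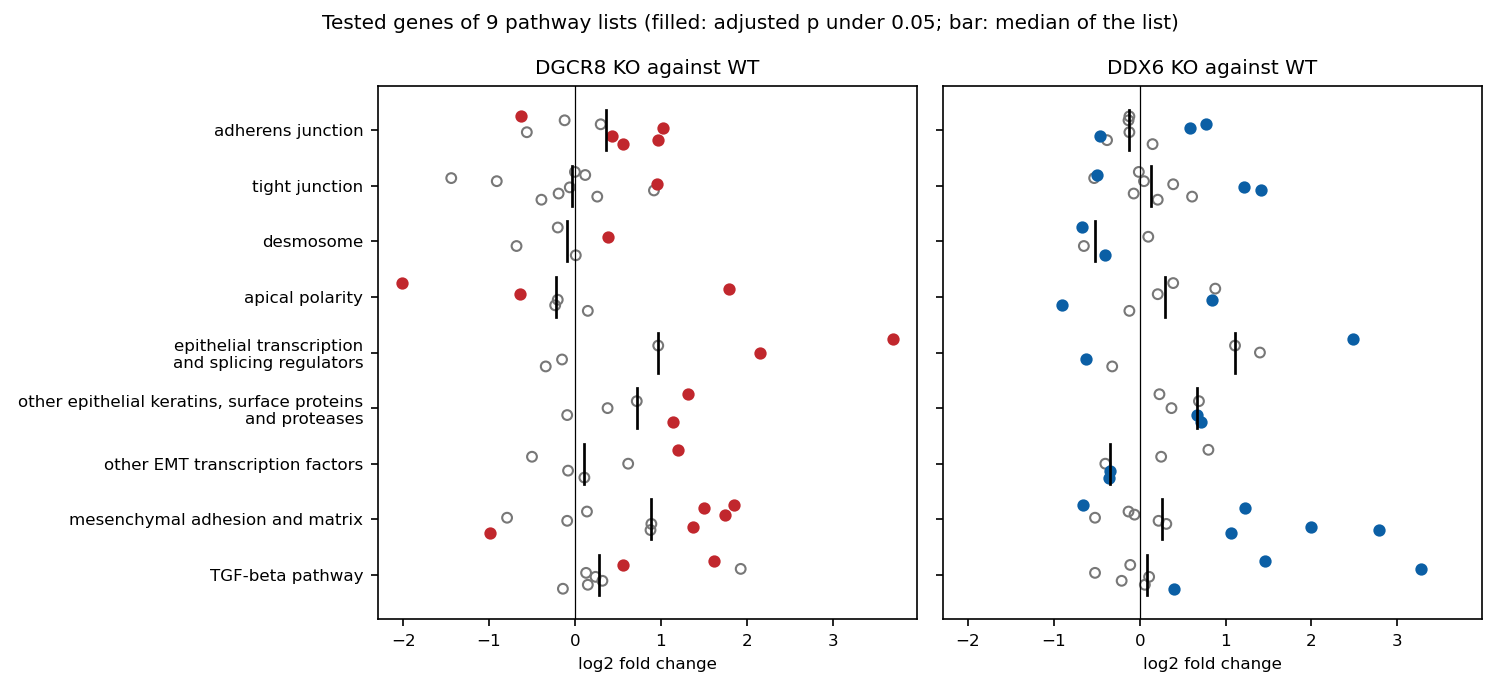
Log2 fold change against WT (x axis) of each tested gene of 9 pathway lists (rows), in DGCR8 KO (left) and DDX6 KO cells (right). Filled points have an adjusted p-value under 0.05, open points do not, and the bar is the list's median, which in DGCR8 KO cells is 0.88 for mesenchymal adhesion and matrix and -0.03 for tight junction.

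On the mesenchymal side, 4 of 10 tested adhesion and matrix genes passed as higher and 1 as lower in DGCR8 KO cells, and the counts were the same in DDX6 KO cells. Fbn1, named after its value was seen, was 1 of the 4 in DDX6 KO cells, at 0.912 ± 0.442 CPM in WT and 7.22 ± 1.24 in DDX6 KO libraries. With at most 4 counts in any WT library, it met the filter only through KO libraries. Its adjusted p-value is no support for a rise. Ncam1, a neural cell adhesion molecule, was at 59.4 ± 10.8 CPM in WT, 217 ± 9.8 in DGCR8 KO and 38.1 ± 6.66 in DDX6 KO libraries, with log2 fold changes of 1.85 (adjusted p = 2.12e-08) and -0.66 (adjusted p = 0.00343). Itgav, the integrin alpha-V chain that binds fibronectin and vitronectin, was at 54.6 ± 14, 177 ± 0.392 and 51 ± 8.4 CPM. Itga5, the alpha chain of the main fibronectin receptor, was called higher in both knockouts, at 7.46 CPM on average in WT, 19.3 in DGCR8 KO and 16.3 in DDX6 KO libraries (adjusted p = 5.93e-04 and 0.00299). Mmp14, a membrane metalloprotease, was also called higher in both, with 1.37 and 2.00. Lgals1, galectin-1, was lower in DGCR8 KO cells at 15.1 ± 2.95 CPM and higher in DDX6 KO cells at 61.5 ± 7.17 than in WT at 28.8 ± 3.69. Both knockouts were set against the same WT libraries, and list medians were 0.88 and 0.27. The summed level of the fibroblast markers was higher in each DDX6 KO library than in any WT library, as given above. From WT to DDX6 KO, Tagln went from 1.69 to 5.34 CPM on average and Col1a1 from 1.88 to 4.07. Acta2 (1.87 to 2.89), Thy1 (0.274 to 0.953), Col3a1 (0.532 to 0.613), Lum (0.223 to 0.316) and S100a4 (0 to 0.157) were higher too. Pdgfrb (3.86 to 2.52) and Col1a2 (0.93 to 0.874) were lower, the latter with at most 4 counts in any of these libraries, and Dcn and Postn had no count in either. The part of these markers in the values was not tested. The 6 mesoderm and neural markers summed to 33.6 to 46.7 CPM in WT, 27.2 to 29.7 in DGCR8 KO and 72.7 to 124 in DDX6 KO libraries, of which Sox1 made up 91.5 of the last on average. The 4 formative epiblast markers summed to 194 to 285, 147 to 178 and 81.4 to 107 CPM in that order, with Fgf5 at 0 counts throughout.

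Of 5 other EMT transcription factors tested, 1 passed as higher with DGCR8 lost and 2 as lower with DDX6 lost. The first was Snai1, Snail, named after its value was seen, at 4.37 ± 1.47 CPM in WT and 10.5 ± 4.7 in DGCR8 KO cells (adjusted p = 0.0303). Of 8 tested TGF-beta pathway genes, 2 passed as higher with DGCR8 lost and 3 with DDX6 lost, with medians of 0.28 and 0.09. Tgfbr2, a TGF-beta receptor chain also under 10 CPM, was also named after its value was seen. It was at 0.689 ± 0.598 CPM in WT, 2.78 ± 2.16 with DGCR8 lost and 6.58 ± 2.41 with DDX6 lost. In DDX6 KO cells it passed (adjusted p = 0.00199) and is among the 3 genes counted. No WT library held more than 4 counts of Tgfbr2, so only KO libraries brought it through the filter. That adjusted p-value cannot be read as evidence of a rise. The TGF-beta pathway is a known inducer of EMT.

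For each member called against WT, the genes with the most similar profile were sought among 8333 tested genes averaging 10 CPM or more, by the root mean square difference of log2 CPM relative to the WT mean over the 10 libraries. Epcam was closest to Slc17a9 (0.14) and Fnbp1 (0.17), where its own root mean square distance from the WT mean was 0.76. Fn1 was closest to Agrn (0.14), a matrix proteoglycan at 221, 246 and 93.9 CPM on average in WT, DGCR8 KO and DDX6 KO cells, and to Pmm1 (0.15). Vim was closest to Il6st (0.17), the shared receptor chain of LIF signalling, at 33, 118 and 23.5 CPM, and to Ncam1 (0.24). The keratins were followed less closely, Krt8 by Tubb2a (0.30) and Zhx1 (0.33) and Krt18 by Eno3 (0.30) and Vamp8 (0.32). Cdh2 was closest to Skida1 (0.39) and Cachd1 (0.44), and Cldn6 to Dtx1 (0.52) and Platr14 (0.58), the largest of these differences.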

How the data were processed

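Raw gene counts from 10 QuantSeq 3′ libraries were used as deposited. According to the study's methods and the file header, the authors trimmed reads with cutadapt 1.14, aligned them to mm10 with STAR 2.5.3a keeping unique alignments, and counted sense-strand reads with featureCounts 1.5.3 on a Gencode annotation without ribosomal RNA and with 92 ERCC spike-ins. Spike-ins (1.1% to 2.36% of counts) were set apart. Symbols for 51274 of 51467 genes and coordinates came from GENCODE M21 (GRCm38).

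Counts were scaled by TMM (edgeR 4.0.16) and fitted with limma-voom (limma 3.58.1, R 4.3.3) on all 10 libraries with the group as the only term, after a filter of 3 CPM in 3 libraries. A separate fit with each clone as its own group gave the clone comparisons. Values are mean ± SD of CPM, and fold changes carry the SE and 95% interval of the fit. No 2 libraries of a group agreed within sampling noise. Alternatives included edgeR, DESeq2 1.42.0, limma-trend, other scalings, other filters, each library left out and a replicate block. The scripts were tested on simulated data. Library totals (2131156 to 4745083) limit precision for members under 10 CPM, and no molecular identifiers are stated, so counting intervals cover counting error only.

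Same-numbered libraries of WT and DGCR8 KO deviated together (correlations of 0.145, 0.267 and 0.285), a hint from the data that the numbers in the titles may pair them. Same-numbered pairs with DDX6 KO libraries ran from -0.084 to 0.136. The main fit did not use the numbers, and the replicate block used them for all 10 libraries. All members were named. From each pathway list, genes called in a contrast with a mean of at least 10 CPM were named, at most 4 per list and contrast by size, and 2 similar genes per called member. Promoters of 5 members were described and those of the other 5 are not reported here. Members, lists, rules and alternatives were chosen with earlier results of these data known.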

Additional observations from a re-analysis of the deposited data

How the results depend on the processing

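In 493 of 546 combinations of a tested member, a contrast and an alternative fit, the direction and the side of the threshold were the same. Direction reversed only for differences that did not pass as reported. The 10 that newly passed were all of Cdh1, and the 14 that no longer passed were of Vim, Krt8, Krt18 and Cdh2. Values less the chromosome median have no test. Among these Cdh1 changed sign to 0.16 in DGCR8 KO cells, 0.03 in DDX6 KO cells and 0.15 between the knockouts, Krt18 (0.01) and Fn1 (-0.02) changed sign in DGCR8 KO cells within the spread of libraries, and Zeb1 between the knockouts went from 0.69 to 0.62. Krt18 in DGCR8 KO cells was at 0.05 with DESeq2, 0.06 with edgeR, 0.06 with limma-trend, 0.03 with the replicate block and between -0.36 and 0.32 with a library left out. Cdh1 in DDX6 KO cells was at 0.01 with a filter of 10 CPM and with edgeR, 0.00 with DESeq2 and limma-trend, 0.02 with TMM without chromosomes 6 and 8, 0.08 with the replicate block, 0.12 with total counts or clone 1 alone, and between -0.08 and 0.09 with a library left out. Zeb1 in DDX6 KO cells was at 0.00 with the 10 CPM filter and limma-trend, 0.02 with TMM without chromosomes 6 and 8, 0.07 with the replicate block, 0.11 with total counts, 0.12 with clone 2 alone, and between -0.14 and 0.13 with a library left out. Cdh2 in DDX6 KO cells was at -0.47 with clone 1 alone and between -0.22 and 0.65 with a library left out.

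Counts of called genes moved by over 1.5 times with the adjusted p-value alone, to 4245 from 1722 for DGCR8 KO, 4032 from 1310 for DDX6 KO and 5144 from 1997 for the knockouts against each other, since the fold limit was dropped. A filter of 10 CPM, which tests fewer genes and leaves out Cldn6, gave 822 for DDX6 KO and 1316 between the knockouts. Between the clones 5 genes were called, and 3 to 5 with a library left out. Members called stayed at 4 or 5, 2 or 3, 5 or 6 and 0 in the 4 contrasts under fits with the same call rule. With total counts as the scale Fn1 in DDX6 KO cells passed (adjusted p = 3.14e-07) but fell just short of the fold of a call. With the replicate block 1749, 1200 and 1978 genes and 5, 3 and 6 members were called. The block changed no member's call. Cdh1 newly passed the adjusted p-value without reaching the fold, in DGCR8 KO cells at -0.27 (adjusted p = 0.0391) and between the knockouts at -0.36 (adjusted p = 0.00726), and no other member changed its side of that threshold.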
